A study of Mus musculus with 16 samples.

Results

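Osteoclasts form when mononuclear precursors of the monocyte lineage fuse, and 10 membrane genes of that step and of the finished cell were followed here across 4 genotypes. They were the fusion proteins Dcstamp and Ocstamp, the lectin Siglec15, the tetraspanins Cd9 and Cd81, the adhesion and recognition molecules Cd44, Cd47 and Sirpa, the membrane protease Adam8, and the calcitonin receptor Calcr. They were picked by symbol from the count table of 21936 genes, all 10 were found, and all 10 were among the 12093 genes with enough counts to be tested. The 16 RNA libraries came from bone marrow of C57BL/6J mice, sorted for CD11b, a myeloid surface protein, and turned into osteoclasts in culture, with 4 libraries each of FLT3 ITD Ptprc KO, FLT3 ITD, Ptprc KO and WT. FLT3 ITD mice carry, knocked into their own gene, a tandem duplication known from acute myeloid leukaemia that keeps the receptor tyrosine kinase FLT3 active, and Ptprc encodes CD45, a tyrosine phosphatase of blood cells. FLT3 ITD Ptprc KO, called the double mutant below, carries both changes. The culture was the same for all groups: M-CSF at 50 ng/ml for 3 days, then RANKL at 20 ng/ml as well, and RNA was harvested between day 3 and day 5, once mature osteoclasts began to show. Neither the harvest day of a library nor the age or sex of the mice is known here. Nothing says that the 4 libraries of a genotype came from separate animals, so p-values measure the spread between these libraries, which may be technical. A FLT3 inhibitor named in the protocol is on no sample label.

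RANKL acts through its receptor and the transcription factor NFATc1 to switch on the genes that precursors need to fuse and to resorb bone. DC-STAMP and OC-STAMP are multi-pass membrane proteins without which mouse precursors stay mononuclear, while tetraspanins, CD44 and the CD47 and SIRPα pair act at the contact between 2 cells. The calcitonin receptor is a G protein-coupled receptor that appears late, on the formed osteoclast, and calcitonin acts through it to halt resorption.

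The members differed widely in level. Per gene length, in the authors' TPM (transcript abundance scaled to gene length and library size), Sirpa was the highest in WT cultures at 1157 ± 122 TPM (SD, n = 4), followed by Dcstamp at 701 ± 248 TPM, Cd9 at 579 ± 31.4 TPM, Adam8 at 498 ± 126 TPM, Cd44 at 359 ± 55.1 TPM and Ocstamp at 274 ± 66.9 TPM. Siglec15 stood at 141 ± 8.43 TPM in WT, and Cd47 at 76.6 ± 18.0 TPM, Calcr at 70.6 ± 7.59 TPM and Cd81 at 57.6 ± 28.3 TPM were the lowest. Neighbours in this order overlapped between WT libraries, except that every WT value of Ocstamp lay above every one of Siglec15 and every one of Siglec15 above every one of Cd47. Every member had at least 111 counts in each library. The spread between replicates of 1 genotype, as the SD of log2 CPM (counts scaled to library size) pooled over the groups, was 1.07 for Siglec15, 1.04 for Cd81, 0.99 for Ocstamp, 0.88 for Calcr, 0.83 for Adam8 and 0.78 for Dcstamp. It was smaller for Cd47 at 0.50, Cd9 at 0.30, Sirpa at 0.25 and Cd44 at 0.20, against a median of 0.35 over all tested genes.

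Total counts were 24211724 to 35773313 per library. The count of Ptprc matched the labels: 54.1 to 86.7 CPM in the double mutant and 30.8 to 45.8 CPM in Ptprc KO, against 230 to 543 CPM in FLT3 ITD and 412 to 472 CPM in WT. The cultures expressed osteoclast genes, but not evenly. The mean log2 CPM of 9 osteoclast markers (Acp5, Ctsk, Mmp9, Car2, Atp6v0d2, Oscar, Itgb3, Nfatc1 and Tnfrsf11a) was 8.16, 8.28, 10.30 and 8.08 in double-mutant replicates 1 to 4, and 10.63, 10.60, 10.59 and 8.99 in FLT3 ITD. It was 9.80, 10.96, 10.80 and 9.66 in Ptprc KO and 9.98, 10.11, 9.94 and 10.13 in WT. Double-mutant replicate 3 therefore stood above its group, and FLT3 ITD replicate 4 below its own. The summed CPM of 9 macrophage and monocyte markers ranged over 640 to 2847 in the double mutant, 278 to 2672 in FLT3 ITD, 271 to 1845 in Ptprc KO and 351 to 1832 in WT. FLT3 ITD replicates 1 and 3 were much closer to each other than any other pair, though further apart than counting noise, and FLT3 ITD replicate 2 had a trend of counts with gene length (Spearman rho -0.46, against -0.18 to 0.18 in the other libraries). In bulk RNA, fewer cells of a type and less RNA per cell cannot be told apart, and this holds for every level below.

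**Figure D1:**
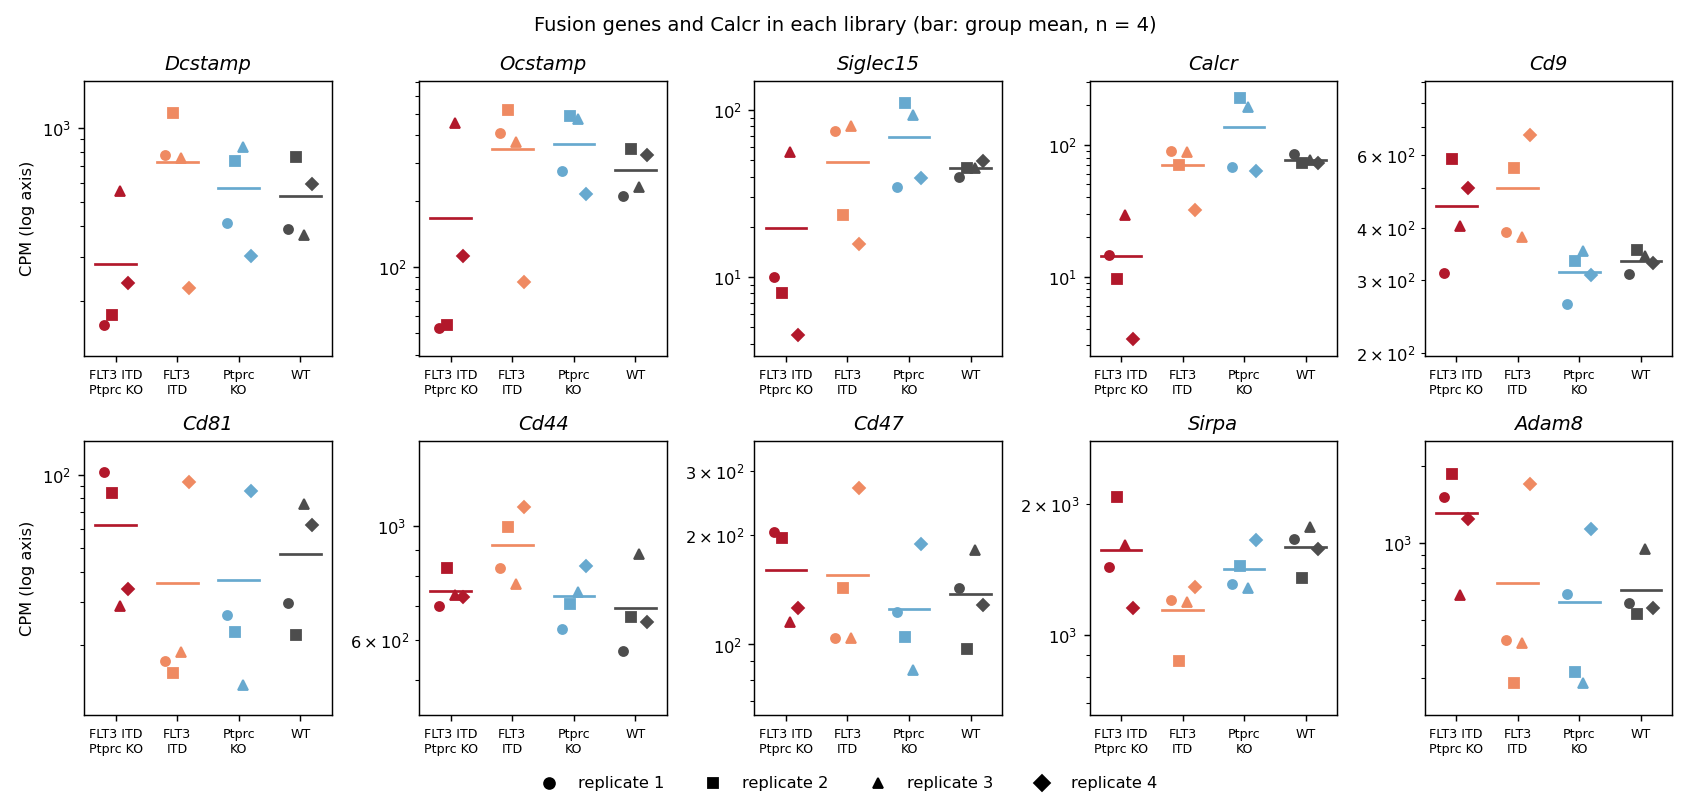
CPM of each of the 10 genes in every library on a log axis, by genotype, with the replicate number as the marker shape and a bar at the group mean (n = 4). Calcr is the panel in which all 4 double-mutant libraries, 3.33 to 29.4 CPM, lie below all 12 others, while Dcstamp, Ocstamp and Siglec15 have double-mutant replicate 3 among the other genotypes.

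Calcr showed the largest differences between genotypes among the 10 genes. It had 14.5, 9.61, 29.4 and 3.33 CPM in the double mutant (replicates 1 to 4), 89.0, 70.5, 87.4 and 32.2 CPM in FLT3 ITD, 67.6, 226, 193 and 63.4 CPM in Ptprc KO, and 85.3, 72.8, 76.4 and 72.8 CPM in WT. All 4 double-mutant libraries lay below all 12 others, which was so for 64 of the 12093 genes tested (0.529%) and for no other member. The WT libraries were nearly level, and Ptprc KO split into replicates 2 and 3, which were high, and 1 and 4, which lay just below WT. The mean was 14.2 ± 11.1 CPM in the double mutant, 69.8 ± 26.4 CPM in FLT3 ITD, 137.5 ± 84.2 CPM in Ptprc KO and 76.8 ± 5.92 CPM in WT (SD, n = 4 each). The SD in the double mutant was nearly as large as its mean.

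In the edgeR fit over all genes, the log2 fold change of Calcr in the double mutant was -3.28 (SE 0.59) against Ptprc KO, with an adjusted p of 0.054, which missed the threshold of 0.05. It was -2.30 (SE 0.57) against FLT3 ITD and -2.44 (SE 0.57) against WT, where the edgeR adjusted p was 0.105 and 0.148. These 3 comparisons share the double-mutant libraries. Against WT, Calcr stood at -0.14 (SE 0.54) in FLT3 ITD and at 0.84 (SE 0.55) in Ptprc KO, with edgeR adjusted p of 0.942 and 1.00, so neither single change showed a difference beyond the replicate spread. The interaction, the log2 effect of losing Ptprc with FLT3 ITD minus that without it, was -3.14 (SE 0.79, edgeR adjusted p = 0.245). The call turned on the method. DESeq2 called Calcr lower in the double mutant against FLT3 ITD (-2.32, adjusted p = 0.0038), against Ptprc KO (-3.30, adjusted p = 3.2e-06) and against WT (-2.45, adjusted p = 0.0022), and limma on log2(TPM + 1) called it against Ptprc KO alone (-3.24, adjusted p = 0.027). Of all genes with an adjusted p, DESeq2 called 7.55%, 2.5% and 0.926% in these comparisons, and limma called 0.137% against Ptprc KO. Without double-mutant replicate 3, edgeR gave -2.93 against FLT3 ITD (adjusted p = 0.024), -3.91 against Ptprc KO (adjusted p = 0.014) and -3.07 against WT (adjusted p = 0.037). Without this library, calls were also far more common over all genes, at 10.8% against FLT3 ITD, 6.45% against Ptprc KO and 0.681% against WT, and in the interaction, where Calcr passed too (-3.77, edgeR adjusted p = 0.046), at 0.459%. The comparison with Ptprc KO also passed without Ptprc KO replicate 1 (-3.50, edgeR adjusted p = 0.043) or 4 (-3.51, edgeR adjusted p = 0.044), where 0.131% and 0.0902% of all genes did. The one with FLT3 ITD passed without FLT3 ITD replicate 4 (-2.54, edgeR adjusted p = 0.029), where 14.7% of all genes did.

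Calcr was also set beside the osteoclast markers of the same culture, whose part in its level was not tested. Taken as log2 CPM minus the mean of the 9 osteoclast markers, a measure chosen after its values were seen and given as a description, Calcr was at -4.29, -5.0, -5.42 and -6.31 in the double mutant and at -4.15, -4.46, -4.14 and -3.97 in FLT3 ITD. It was at -3.72, -3.15, -3.20 and -3.67 in Ptprc KO and at -3.57, -3.92, -3.68 and -3.94 in WT. On this scale all 8 libraries with FLT3 ITD lay below all 8 without it, as was so for 8 of 12093 genes (0.0662%) and for no other member. This share is not a test, because the scale was chosen after the values. On log2 CPM alone the libraries with and without FLT3 ITD overlapped, and FLT3 ITD replicates 1 and 3 were closely alike. The nearest values were FLT3 ITD replicate 4 at -3.97 and WT replicate 4 at -3.94, so the margin at the border was thin. The double mutant and FLT3 ITD overlapped on this scale, since double-mutant replicate 1 at -4.29 lay above FLT3 ITD replicate 2 at -4.46. In double-mutant replicate 3 the osteoclast marker mean (10.30) was above that of every WT library and Calcr, at 29.4 CPM, was below every library of the other genotypes. Ocstamp on the same scale spanned -2.50 to -1.26 in the double mutant, -2.56 to -1.57 in FLT3 ITD, -2.03 to -1.69 in Ptprc KO and -2.25 to -1.67 in WT, and the groups overlapped.

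**Figure D2:**
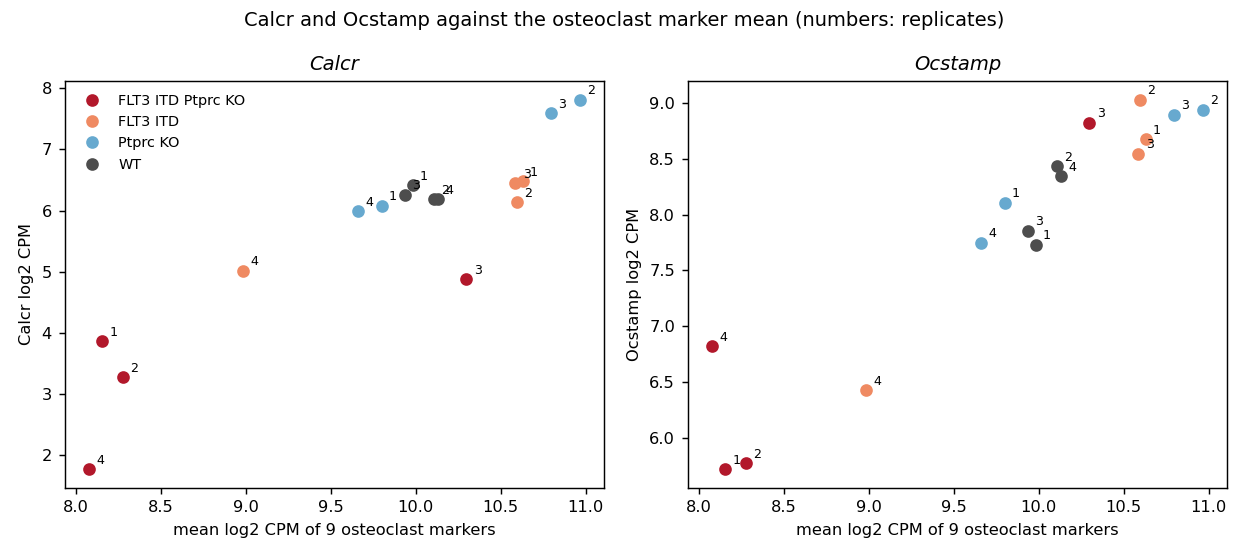
Log2 CPM of Calcr (left) and Ocstamp (right) against the mean log2 CPM of 9 osteoclast markers, 1 point per library, with the replicate number beside it. Double-mutant replicate 3, at a marker mean of 10.30, lies among the other genotypes for Ocstamp and below them for Calcr (4.88 on the log2 scale).

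Calcr lies on the minus strand of chr6:3685680-3764714 (GRCm38), over the miRNA genes Mir653 and Mir489 on the same strand. Whether reads of these miRNA genes entered the count of Calcr was not tested. RefSeq gives 2 start sites, and both promoters, 250 bases before the start to 50 after it (GRCm38.p6), are shown because Calcr carries the main difference. Capitals mark GGAAA, the core of NFAT sites, which was searched on both strands together with TGANTCA (AP-1), TCATGTG (a site of MITF) and GAGGAA (PU.1). A match of GGAAA and one of GAGGAA can share letters.
Calcr, chr6:3763574-3763873, minus strand: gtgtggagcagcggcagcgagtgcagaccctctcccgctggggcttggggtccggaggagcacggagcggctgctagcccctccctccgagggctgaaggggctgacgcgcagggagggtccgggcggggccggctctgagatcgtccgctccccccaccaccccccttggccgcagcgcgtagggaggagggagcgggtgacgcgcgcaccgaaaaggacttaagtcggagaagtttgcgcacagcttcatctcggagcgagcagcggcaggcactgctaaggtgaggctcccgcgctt
Calcr, chr6:3764664-3764963, minus strand: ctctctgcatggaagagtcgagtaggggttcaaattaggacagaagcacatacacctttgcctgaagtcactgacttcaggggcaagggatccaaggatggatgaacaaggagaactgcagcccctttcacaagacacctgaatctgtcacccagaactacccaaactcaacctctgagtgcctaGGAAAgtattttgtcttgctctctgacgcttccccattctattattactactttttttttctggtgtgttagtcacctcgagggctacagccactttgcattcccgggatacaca
The inner promoter was 70.0% G and C with 29 CpG and held none of the 4 motifs. The outer one, at the annotated 5′ end of the gene, was 47.3% G and C with 4 CpG and held a single GGAAA, at -65 from the start. Of all 32851 promoters of this length in the RefSeq table, 61.3% held GGAAA, 7.81% TGANTCA, 3.77% TCATGTG and 28.3% GAGGAA. Which start the reads came from was not tested.

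Among the genes within 500 kb of Calcr, those on one side of it were low in the double mutant as well. Tfpi2, a serine protease inhibitor whose gene ends 197881 bases away, had 0.40, 0.66, 1.47 and 0.33 CPM in the double mutant, 5.23, 9.23, 4.31 and 2.62 CPM in FLT3 ITD, 7.91, 16.4, 12.5 and 5.68 CPM in Ptprc KO and 6.05, 7.32, 7.18 and 8.42 CPM in WT. Gng11, a G protein gamma subunit 239190 bases away, had 1.16, 1.00, 2.18 and 0.66 CPM in the double mutant, 6.24, 21.7, 5.57 and 7.53 CPM in FLT3 ITD, 9.50, 20.4, 13.5 and 14.9 CPM in Ptprc KO and 9.40, 11.8, 16 and 14.3 CPM in WT. For both genes the double-mutant libraries lay below all 12 others, in replicate 3 too. These double-mutant values were low, at 11 to 45 counts for Tfpi2 and 22 to 67 for Gng11. In the edgeR fit Tfpi2 fell against Ptprc KO (-3.89, SE 0.52, adjusted p = 0.0092) and against WT (-3.34, SE 0.51, adjusted p = 0.026), and so did Gng11 (-3.54, SE 0.48, adjusted p = 0.0092, and -3.36, SE 0.48, adjusted p = 0.021). With only the groups compared, edgeR called 0 genes against Ptprc KO and 1 against WT, so these calls did not all hold there. Against FLT3 ITD they stood at -2.90 and -3.03, with edgeR adjusted p of 0.084 and 0.071. Bet1, a vesicle transport protein 312185 bases away, stood at -0.68 (SE 0.18) against FLT3 ITD, -0.47 (SE 0.18) against Ptprc KO and -0.45 (SE 0.18) against WT in the double mutant, and passed in none of these (edgeR adjusted p of 0.105, 0.251 and 0.590). On the other side, Vps50 was at 0.05 to 0.17 and Samd9l at 0.54 to 0.79 in the same 3 comparisons, and neither passed. No tested gene within 500 kb of Dcstamp or Ocstamp passed in any comparison.

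**Figure D3:**
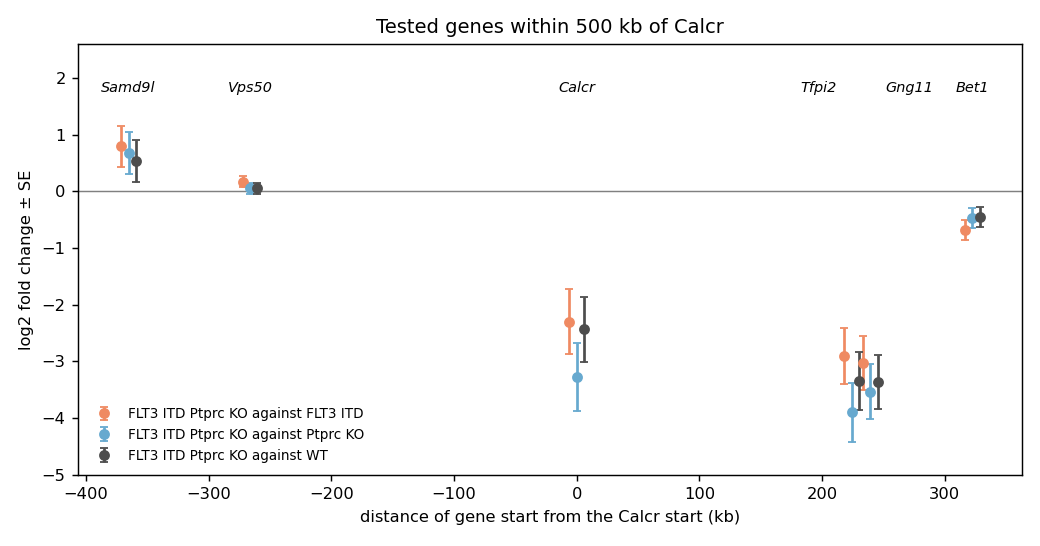
Log2 fold change ± SE in the double mutant against FLT3 ITD, Ptprc KO and WT for the tested genes within 500 kb of Calcr, placed by the distance of their start from that of Calcr. Calcr, Tfpi2 and Gng11 lie between -2.30 and -3.89, and Vps50 and Samd9l lie above 0.

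The listed partners of the calcitonin receptor did not lie low as a list. Of 12 listed receptor partners, 11 were tested and edgeR called none in any comparison. At an unadjusted edgeR p under 0.05, 3 of the 11 were higher in the double mutant against Ptprc KO and 1 was lower. The higher genes were Calcrl, Ramp1 and Ramp3, of which Ramp1 and Ramp3 were near the floor, and Adcy3 was the lower gene. Of all genes, 17.8% passed that mark, and the median of the list was 0.74 against 0.04 over all genes. Gnas, the stimulatory G protein subunit, averaged 521 CPM in the double mutant, 562 CPM in FLT3 ITD, 516 CPM in Ptprc KO and 514 CPM in WT, and Prkaca, the catalytic subunit of protein kinase A, 74.3, 73.8, 72.7 and 73.2 CPM in the same groups. Calcrl, the related receptor for CGRP and adrenomedullin, averaged 175 CPM in the double mutant, 105 CPM in FLT3 ITD, 75.1 CPM in Ptprc KO and 80.7 CPM in WT (log2 fold change 1.11, SE 0.57, edgeR adjusted p = 0.601 in the double mutant against WT). Adcy3, an adenylyl cyclase, averaged 86.0 CPM in the double mutant, 183 CPM in FLT3 ITD, 247 CPM in Ptprc KO and 188 CPM in WT (-1.52, SE 0.70, edgeR adjusted p = 0.279 against Ptprc KO). The RAMP proteins, which turn the calcitonin receptor into an amylin receptor, were close to the floor: Ramp1 averaged at most 1.74 CPM and Ramp3 at most 0.68 CPM in any genotype, and Ramp2 was too low to test.

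Dcstamp and Ocstamp, the multi-pass fusion proteins, had similar profiles over the libraries. Dcstamp (chromosome 15, 39745930 to 39760938) had 160, 175, 554 and 237 CPM in the double mutant, 780, 1147, 755 and 225 CPM in FLT3 ITD, 414, 734, 840 and 303 CPM in Ptprc KO and 390, 764, 368 and 594 CPM in WT. Ocstamp (chromosome 2, 165393760 to 165400405) had 52.7, 54.6, 452 and 113 CPM in the double mutant, 408, 523, 373 and 86.0 CPM in FLT3 ITD, 276, 491, 476 and 215 CPM in Ptprc KO and 212, 345, 232 and 325 CPM in WT. For both genes 3 of 4 double-mutant libraries were low, replicate 3 was as high as the other genotypes, and FLT3 ITD replicate 4 was as low as the double mutant, so the groups overlapped. The log2 fold change of Dcstamp in the double mutant was -1.37 (SE 0.50) against FLT3 ITD, -1.02 (SE 0.50) against Ptprc KO and -0.91 (SE 0.50) against WT, with edgeR adjusted p of 0.137, 0.290 and 0.601. That of Ocstamp was -1.05 (SE 0.64), -1.12 (SE 0.64) and -0.73 (SE 0.64) in the same comparisons, with edgeR adjusted p of 0.298, 0.347 and 0.636. Single libraries decided the calls, in comparisons where leaving them out gave many more calls over all genes, as above. Without FLT3 ITD replicate 4, Dcstamp passed against FLT3 ITD (-1.67, edgeR adjusted p = 0.036), and without double-mutant replicate 3 both passed there (-1.93, edgeR adjusted p = 0.035, and -2.24, edgeR adjusted p = 0.031), and Ocstamp also against Ptprc KO (-2.31, edgeR adjusted p = 0.030).

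Siglec15, a sialic acid-binding lectin that signals through the adaptor DAP12 (Tyrobp), followed the osteoclast markers too. It had 10.0, 8.02, 56.5 and 4.50 CPM in the double mutant, 75.0, 23.7, 80.0 and 15.7 CPM in FLT3 ITD, 34.8, 111, 93.1 and 39.0 CPM in Ptprc KO and 39.6, 45.1, 45 and 49.3 CPM in WT. Double-mutant replicates 1, 2 and 4 were below all other libraries and replicate 3 was above WT. FLT3 ITD was split, with replicates 2 and 4 low, and replicate 2 is the library with the length trend. The log2 fold change in the double mutant was -1.30 (SE 0.72) against FLT3 ITD, -1.81 (SE 0.73) against Ptprc KO and -1.18 (SE 0.72) against WT, with edgeR adjusted p of 0.254, 0.255 and 0.601. Without double-mutant replicate 3, edgeR called it against FLT3 ITD (-2.69, adjusted p = 0.027), where 10.8% of all genes passed. Against Ptprc KO it passed too (-3.21, edgeR adjusted p = 0.019), where 6.45% of all genes did. Its adaptor Tyrobp averaged 525 CPM in the double mutant, 589 CPM in FLT3 ITD, 588 CPM in Ptprc KO and 511 CPM in WT, and passed in no comparison.

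Adam8, a membrane metalloprotease and disintegrin that promotes osteoclast formation in mice, ran the opposite way to Dcstamp and Ocstamp. It had 1506, 1851, 627 and 1244 CPM in the double mutant, 420.0, 285, 408 and 1690 CPM in FLT3 ITD, 635, 314, 286 and 1131 CPM in Ptprc KO and 586, 529, 944 and 558 CPM in WT. The high libraries were double-mutant replicates 1, 2 and 4, FLT3 ITD replicate 4 and Ptprc KO replicate 4, and the groups overlapped. The log2 fold change in the double mutant was 0.90 (SE 0.56) against FLT3 ITD, 1.14 (SE 0.57) against Ptprc KO and 1.00 (SE 0.56) against WT, with edgeR adjusted p of 0.307, 0.295 and 0.601. Without FLT3 ITD replicate 4 it stood at 1.82 against FLT3 ITD and passed (edgeR adjusted p = 0.036), where 14.7% of all genes did. Adam8 lies on the minus strand of chr7:139978932-139992562, over Mir7062 on its own strand and the transcript Gm16201 on the other. Its RefSeq promoter (GRCm38.p6) is shown as that of the member opposed to the fusion genes, in lower case throughout because none of the 4 motifs was found.
Adam8, chr7:139992513-139992812, minus strand: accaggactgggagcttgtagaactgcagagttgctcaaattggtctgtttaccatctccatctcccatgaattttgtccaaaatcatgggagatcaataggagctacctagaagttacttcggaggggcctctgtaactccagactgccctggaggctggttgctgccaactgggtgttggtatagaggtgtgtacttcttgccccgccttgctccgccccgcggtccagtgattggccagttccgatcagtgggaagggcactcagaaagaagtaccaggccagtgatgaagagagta
It was 52.3% G and C with 6 CpG. RefSeq promoters were matched for 6 of the 10 members: Adam8, Calcr, Cd9, Cd44, Cd47 and Cd81.

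The tetraspanins Cd9 and Cd81, which organise patches of membrane proteins, did not move together. Cd9 (chromosome 6, 125460266 to 125494791) had a higher mean in the double mutant and FLT3 ITD than in Ptprc KO and WT. It had 313, 589, 405 and 500.2 CPM in the double mutant, 393, 558, 380.4 and 671 CPM in FLT3 ITD, 263, 334, 352 and 309 CPM in Ptprc KO and 309.7, 355, 342 and 330.4 CPM in WT. All FLT3 ITD libraries were above all WT libraries, in a comparison where 6.09% of all genes did not overlap. The double mutant overlapped FLT3 ITD, and through replicate 1 also Ptprc KO and WT. The log2 fold change was 0.58 (SE 0.21, edgeR adjusted p = 0.590) in FLT3 ITD against WT, 0.43 (SE 0.21, edgeR adjusted p = 0.601) in the double mutant against WT and 0.52 (SE 0.21, edgeR adjusted p = 0.254) in the double mutant against Ptprc KO, so none passed. Cd81 (chromosome 7, 143052739 to 143067934) had 102, 84.2, 29.0 and 34.0 CPM in the double mutant and 17.2, 15.3, 18.8 and 92.9 CPM in FLT3 ITD, and spanned 13.7 to 85.4 CPM in Ptprc KO and 22.0 to 75.7 CPM in WT. Its groups overlapped in every comparison, and the largest log2 fold change between groups was 0.79 (SE 0.70, edgeR adjusted p = 0.469) in the double mutant against FLT3 ITD. The interaction for Cd81 was 1.14 (SE 0.99, edgeR adjusted p = 0.514). Of 11 other tetraspanins, all tested, edgeR called none in any comparison. In FLT3 ITD against WT all 11 had a positive log2 fold change, with a median of 0.24 against 0.04 over all genes, and none had an unadjusted p under 0.05. Cd63, a tetraspanin of lysosomes, averaged 700 CPM in the double mutant, 1024 CPM in FLT3 ITD, 772 CPM in Ptprc KO and 722 CPM in WT. Cd9 and Cd81 both overlap transcripts on the opposite strand (Gm28809 and Gm26728 for Cd9, R74862 for Cd81), and whether the counting used strand could not be learned from the labels.

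Sirpa is an inhibitory receptor of myeloid cells that binds CD47 on the neighbouring cell and recruits the phosphatases SHP-1 and SHP-2. Its mean was lowest in FLT3 ITD. Sirpa (chromosome 2, 129592835 to 129632228) had 1438, 2077, 1612 and 1154 CPM in the double mutant, 1207, 871, 1194 and 1291 CPM in FLT3 ITD, 1312, 1442, 1283 and 1652 CPM in Ptprc KO and 1668, 1355, 1771 and 1579 CPM in WT. All FLT3 ITD libraries lay below all WT libraries, in a comparison where 6.09% of all genes did not overlap, while the double mutant overlapped every other group. The log2 fold change was -0.48 (SE 0.18, edgeR adjusted p = 0.590) in FLT3 ITD against WT and 0.46 (SE 0.18, edgeR adjusted p = 0.15) in the double mutant against FLT3 ITD, and the interaction was 0.62 (SE 0.26, edgeR adjusted p = 0.269), so none passed. Its ligand Cd47 (chromosome 16, 49800533 to 49915010) ranged over 116 to 205 CPM in the double mutant, 104 to 270 CPM in FLT3 ITD, 85.0 to 189 CPM in Ptprc KO and 97.1 to 182 CPM in WT. Its log2 fold changes lay between -0.13 and 0.36, and no edgeR adjusted p was under 0.539. The phosphatase genes Ptpn6 (SHP-1) and Ptpn11 (SHP-2) averaged 394 and 136 CPM in the double mutant and 386 and 122 CPM in WT, and passed in no comparison.

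Cd44, the receptor for hyaluronan and osteopontin, was the steadiest of the 10 genes, with 1.91-fold between the highest and the lowest library. Cd44 (chromosome 2, 102811141 to 102901665, over the small RNA gene Gm23731 on the opposite strand) ranged over 700 to 828 CPM in the double mutant, 772 to 1087 CPM in FLT3 ITD, 629 to 838 CPM in Ptprc KO and 569.7 to 884 CPM in WT. The largest difference was 0.41 (SE 0.16, edgeR adjusted p = 0.590) in FLT3 ITD against WT, with overlapping libraries. Of its ligands, Spp1 (osteopontin) averaged 957 CPM in the double mutant, 1876 CPM in FLT3 ITD, 1014 CPM in Ptprc KO and 1106 CPM in WT (log2 fold change -0.97, SE 0.26, edgeR adjusted p = 0.107 in the double mutant against FLT3 ITD). The hyaluronan synthases Has1, Has2 and Has3 were too low to test. Of 16 partners and ligands of the fusion receptors 13 were tested, and edgeR called none in any comparison.

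Over the 6 results, the 10 genes gave no call by edgeR at an adjusted p under 0.05. In the double mutant against FLT3 ITD, 0 of 10 passed where 1 of 12093 genes did (0.00827%), 3 (Calcr, Dcstamp and Sirpa) had an unadjusted p under 0.05 where 25.7% of all genes did, and 1 (Calcr) did not overlap where 8.47% did not. Against Ptprc KO, 0 of 10 passed (0.091% of all genes), 3 (Calcr, Cd9 and Siglec15) had an unadjusted p under 0.05 (17.8%), and 1 (Calcr) did not overlap (6.33%). Against WT, 0 of 10 passed (0.108%), 1 (Calcr) had an unadjusted p under 0.05 (7.89%), and 1 (Calcr) did not overlap (5.5%). The share of members with an unadjusted p under 0.05 was close to that of all genes against FLT3 ITD. In FLT3 ITD against WT, 0 of 10 passed (0.0413%), 3 (Cd9, Cd44 and Sirpa) had an unadjusted p under 0.05 (8.45%), and 2 (Cd9 and Sirpa) did not overlap (6.09%). In Ptprc KO against WT, 0 of 10 passed (0.0331%), 0 had an unadjusted p under 0.05 (0.843%) and 0 were without overlap (1.41%). In the interaction, 0 of 10 passed (0.00827%) and 2 (Calcr and Sirpa) had an unadjusted p under 0.05 (17.5%). DESeq2 called 1 of 10, Calcr, in each of the 3 double-mutant comparisons and in the interaction (adjusted p = 0.015). Of all genes with an adjusted p, DESeq2 called 7.55% against FLT3 ITD, 2.5% against Ptprc KO, 0.926% against WT and 1.34% in the interaction. Limma on TPM called 1 of 10, Calcr, against Ptprc KO (0.137% of all genes), and no member against FLT3 ITD (0.0183%), against WT (0.0732%) or in the interaction (0%). Neither tool called a member in FLT3 ITD against WT (0.389% of all genes by DESeq2 and 0.0366% by limma) or in Ptprc KO against WT (0.0729% by DESeq2 and 0.0183% by limma). The median log2 fold change of the 10 genes was -0.22 in the double mutant against FLT3 ITD, 0.09 against Ptprc KO and 0.04 against WT, beside 0.03, 0.04 and 0.05 over all genes, since Dcstamp, Ocstamp, Siglec15 and Calcr lay on one side and Adam8 and Cd81 on the other.

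**Figure D4:**
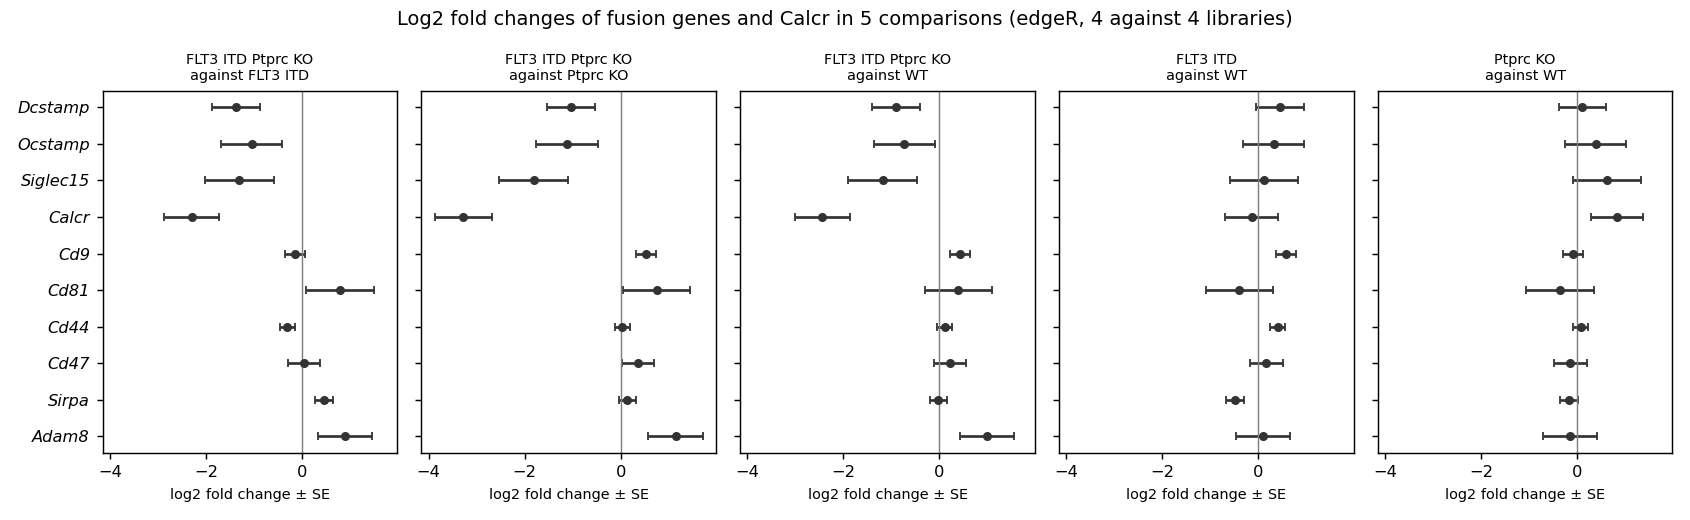
Log2 fold change ± SE of the 10 genes in 5 comparisons, from the edgeR fit of 16 libraries. Dcstamp, Ocstamp, Siglec15 and Calcr are negative in the 3 comparisons of the double mutant, from -0.73 to -3.28, and Adam8 is positive in them, from 0.90 to 1.14.

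Across the 16 libraries 7 of the genes formed 2 groups, opposed to a varying degree, and Cd9, Cd44 and Sirpa were placed in neither. These correlations are descriptions over libraries that share genotypes and culture state, with no p. Dcstamp and Ocstamp correlated with Pearson r = 0.95, Siglec15 and Calcr with 0.92, and all 4 followed the osteoclast marker mean (0.92 for Dcstamp, 0.95 for Ocstamp, 0.93 for Siglec15 and 0.90 for Calcr). Adam8, Cd81 and Cd47 correlated with each other (0.81 to 0.88) and with the mean of 9 macrophage and monocyte markers (0.81 for Adam8, 0.87 for Cd81 and 0.83 for Cd47), and Adam8 ran against Dcstamp (-0.96) and Ocstamp (-0.92). The opposition was weaker for Calcr with Cd81 (-0.48) and Cd47 (-0.45) and for Siglec15 with Cd81 (-0.53). Within genotypes, after the group means were taken out, r was 0.95 for Dcstamp with Ocstamp, 0.89 for Siglec15 with Calcr and -0.95 for Dcstamp with Adam8. Cd9 and Cd44 correlated with each other at 0.72 and only weakly with the osteoclast mean (-0.33 for Cd9 and -0.07 for Cd44), and Sirpa correlated at -0.27 with the osteoclast mean and at 0.51 with the macrophage mean. Sirpa also correlated at 0.61 with Cd81 and at -0.51 with Dcstamp. The part of the osteoclast and macrophage RNA content in the differences between genotypes was not tested.

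**Figure D5:**
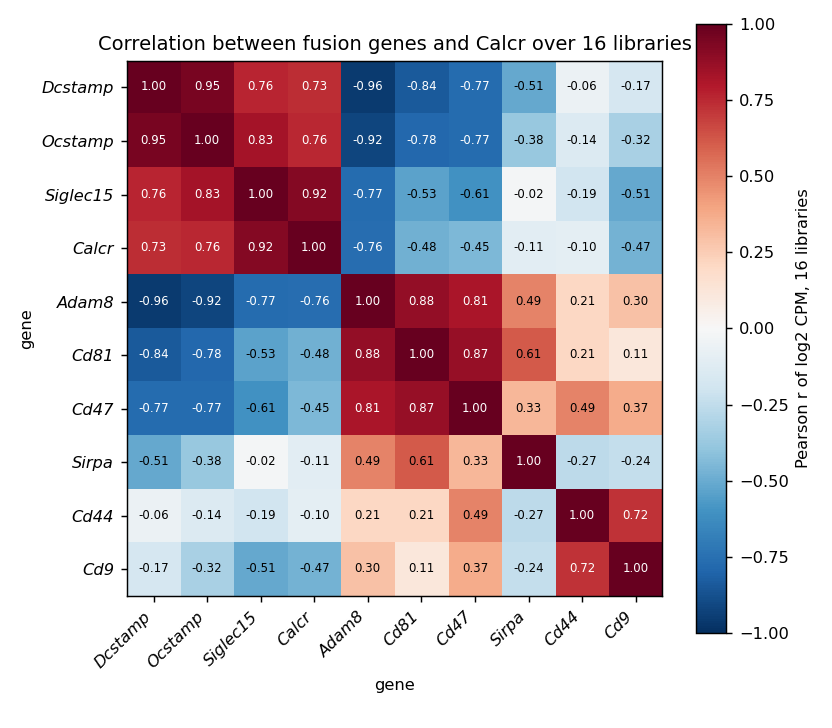
Pearson correlation of log2 CPM between the 10 genes over 16 libraries. The block at the top left holds Dcstamp, Ocstamp, Siglec15 and Calcr (0.73 to 0.95), and the block of Adam8, Cd81 and Cd47 (0.81 to 0.88) has negative values against it.

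The genes outside the list with the most similar profile, by Pearson r of log2 CPM over 16 libraries, were Ldhb (0.97), Msln (0.96) and Dgki (0.96) for Calcr. For Dcstamp they were Chchd10 (0.99), Nmnat1 (0.98) and Pgm2 (0.98), for Ocstamp Scin (0.99), Slc45a3 (0.98) and Rhof (0.98), and among those for Siglec15 were Hspg2 (0.97) and Cdon (0.97). Adam8 was most like Hsph1 (0.99), Stim2 (0.98) and Tmem43 (0.98). Among the genes most like Cd81 were Gng2 (0.97) and Lgals9 (0.97), and Cd47 was most like Fas (0.95), Stard3nl (0.95) and Necap2 (0.95). The closest to Cd9, Anxa1 (0.86), Tes (0.85) and Paqr7 (0.85), and to Cd44, Eif1 (0.91), Ginm1 (0.91) and Ier3ip1 (0.91), were less alike, and for Sirpa they were Adgre4 (0.93), Osbpl11 (0.92) and Zbtb4 (0.91).

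Other genes of fusion lay on both sides. Of 15 listed, 14 were tested and edgeR called none. In the double mutant against FLT3 ITD, 6 of the 14 were lower and 1 was higher at an unadjusted p under 0.05, where 25.7% of all genes passed that mark, with a median log2 fold change of -0.42 against 0.03 over all genes. Snx10, a sorting nexin needed for resorption, averaged 316 CPM in the double mutant, 934 CPM in FLT3 ITD, 891 CPM in Ptprc KO and 642 CPM in WT (log2 fold change -1.56, SE 0.45, edgeR adjusted p = 0.109 against FLT3 ITD). Cd200, a ligand of the receptor Cd200r1, averaged 95.1 CPM in the double mutant, 356 CPM in FLT3 ITD, 237 CPM in Ptprc KO and 197 CPM in WT (-1.90, SE 0.57, edgeR adjusted p = 0.114 against FLT3 ITD). Atp6v0d2, a proton pump subunit that is also among the osteoclast markers, stood at -1.22 (SE 0.54, edgeR adjusted p = 0.176), and P2rx7, an ATP-gated channel, at 1.04 (SE 0.46, edgeR adjusted p = 0.172) in that comparison. Of 8 inducers of the programme, all tested, edgeR called none, and Nfatc1, Tnfrsf11a and Oscar are also among the osteoclast markers. In the double mutant 2 of the 8, Traf6 and Oscar, were lower at an unadjusted edgeR p under 0.05 against FLT3 ITD and Ptprc KO. Of all genes, 25.7% and 17.8% passed that mark. The list median was -0.22 and -0.51 in these comparisons, against 0.03 and 0.04 over all genes. Csf1r, the receptor for M-CSF, averaged 1602 CPM in the double mutant, 1605 CPM in FLT3 ITD, 1633 CPM in Ptprc KO and 1496 CPM in WT, and Tnfrsf11a, the receptor for RANKL, 186, 217, 228 and 223 CPM in the same groups. The transcription factor Nfatc1 averaged 343 CPM in the double mutant, 401 CPM in FLT3 ITD, 563 CPM in Ptprc KO and 491 CPM in WT (log2 fold change -0.52, SE 0.51, edgeR adjusted p = 0.661 in the double mutant against WT), and the RANK adaptor Traf6 61.8, 101, 108 and 87.1 CPM in these groups. All 9 osteoclast markers had a negative log2 fold change in the double mutant in all 3 comparisons, with a median of -1.54 against FLT3 ITD, -1.47 against Ptprc KO and -1.01 against WT, and none passed by edgeR.

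Markers of other cell types were low. The summed CPM of 4 B cell markers was at most 0.06 in the double mutant, 0.06 in FLT3 ITD, 1.57 in Ptprc KO and 0.04 in WT, with Ms4a1 at 0 counts in the double mutant, in FLT3 ITD and in WT. That of 2 erythroid markers was at most 0.04 in any library, and that of 4 mast cell and basophil markers at most 2.32. The sum of 6 neutrophil markers ranged over 0.55 to 12 in the double mutant, 5.67 to 104 in FLT3 ITD, 3.13 to 179 in Ptprc KO and 0.16 to 89.7 in WT, that of 4 T and NK cell markers was at most 6.22, 9.20, 46.6 and 46.4 in these groups, and that of 6 stromal markers at most 23.3, 19.5, 17.3 and 47.9. The T and NK cell sum was nearly all Cd4, which averaged 2.36, 2.77, 16.2 and 21.1 CPM in these groups. Cd3e, Cd3g and Nkg7 each averaged at most 0.06 CPM in any genotype. In the stromal sum, Runx2 averaged 13.3, 8.93, 8.09 and 9.65 CPM, and each other marker at most 6.63 CPM. The part of these other cell types in the levels of the 10 genes was not tested.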

How the data were processed

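The authors deposited 2 tables for the 16 libraries: raw counts per gene, which are whole numbers with no normalization, and TPM, which the authors scaled to gene length and library total. Per the labels' protocols, 500 ng of RNA went into poly(A) selection and a directional kit with UMI adaptors. The submitters' processing notes name GRCm38.p6, featureCounts 2.0.3, UMI-tools 1.1.1, STAR 2.7.6a, cutadapt 4.2 and bcl2fastq 2.20.0.422, with no order or settings, and do not say whether counting was stranded. TPM times gene length over the count lay within 0.946 to 1.06 of its library median for the 5th to 95th percentile of 10582 genes with a mean count of at least 50.

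All values here started from the counts. A robust quasi-likelihood model of 4 genotype means was fitted in edgeR 4.0.16 (R 4.3.3) to the 12093 genes kept by filterByExpr, after TMM scaling, with every library in 1 model (common dispersion 0.137). Tests were two-sided, and p-values were adjusted by the Benjamini-Hochberg method over all genes tested, with a threshold of 0.05. The SE is the fold change divided by the root of its F statistic. CPM rests on TMM-scaled library sizes, with 2 counts added as a prior on the log2 scale. CPM compares a gene between libraries, and TPM compares genes. The alternatives were RLE factors, no filter, the replicate number as a block, only the groups compared, DESeq2 1.42.0, limma 3.58.1 on log2(TPM + 1) of those genes whose TPM averaged 1 or more, FLT3 ITD replicates 1 and 3 summed, the same with replicate 2 left out, and each library left out in turn. The edgeR fit was also run on simulated counts, drawn independently for each library, with known changes in the double mutant alone. They held no outlying or closely alike libraries, so the run does not bear on those seen here. Positions are those of GENCODE vM21 (GRCm38), where 21817 of 21936 gene IDs were found. The 10 genes and all lists were chosen with earlier results of these data known. Each of the 10 genes is given in every comparison, with genes among its 3 most similar; some of these are not reported here. The neighbours described are the tested genes within 500 kb of Calcr, Dcstamp and Ocstamp.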

Additional observations from a re-analysis of the deposited data

Results flagged for a closer look

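Cd81 in FLT3 ITD had a library far from the others: replicate 4, at 92.9 CPM, against 15.3 to 18.8 CPM in replicates 1 to 3. On the log2 scale its gap to the next library was 0.887 of the whole range of the group, above the critical value of Dixon’s outlier test for 4 libraries. Of 40 groups of a gene and a genotype, 1 passed this mark, where chance gives about 1 in 20. The same library had the lowest osteoclast marker mean (8.99) and the highest macrophage marker mean (6.84, in log2 CPM) of its group, and their part in the Cd81 value was not tested.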

How the results depend on the processing

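The 10 genes gave 60 results. Under other settings 18 of 470 values changed sign and 6 newly passed the threshold, and with a library left out 31 of 560 changed sign and 14 newly passed. Calcr kept its sign in the 3 double-mutant comparisons and the interaction throughout. Under the other settings its adjusted p ranged over 0.0038 to 0.555 against FLT3 ITD, 3.2e-06 to 0.274 against Ptprc KO and 0.0022 to 0.332 against WT. With a library left out its edgeR adjusted p ranged over 0.024 to 0.280, 0.014 to 0.162 and 0.037 to 0.373 in the same comparisons. The causes of the changes below were not tested.

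Genes called, in the double mutant against FLT3 ITD, against Ptprc KO and against WT, in FLT3 ITD and Ptprc KO against WT and in the interaction, were 1, 11, 13, 5, 4 and 1. DESeq2 called 982, 340, 132, 64, 12 and 174. With only the groups compared, the 5 comparisons gave 0, 0, 1, 0 and 2. Limma called 2 against FLT3 ITD, 8 against WT, 2 in Ptprc KO against WT and 0 in the interaction. With FLT3 ITD replicates 1 and 3 summed, the double mutant against WT gave 8, FLT3 ITD against WT 1 and the interaction 0, and with replicate 2 also left out FLT3 ITD against WT and the interaction gave 0. With a library left out, counts ranged over 1 to 1798, 2 to 786, 1 to 83, 0 to 3, 2 to 4 and 0 to 56.

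Same-numbered libraries correlated at -0.63 to 0.85 after group means were removed, and 8 of 16 matched best with their own number. These values do not settle whether the numbers are pairs. The sample titles give a number but no pairing, and the main fit did not take the numbers as pairs. With the replicate number as a block, 47 genes were called in the double mutant against Ptprc KO, with Calcr at -3.40 (edgeR adjusted p = 0.024), 0 in FLT3 ITD against WT, 1 in Ptprc KO against WT and 0 in the interaction. Under the block Siglec15 (-0.21) and Adam8 (-0.29) in FLT3 ITD against WT and Dcstamp (-0.036) in Ptprc KO against WT changed sign.

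Other values also changed sign, none of them past the threshold with either sign. On TPM with limma these were Cd9 in the double mutant against FLT3 ITD (0.049) and in the interaction (0.23), Ocstamp (-0.15), Siglec15 (-0.43), Cd47 (-0.12) and Adam8 (-0.47) in FLT3 ITD against WT, and Dcstamp (-0.031) and Cd44 (-0.0027) in Ptprc KO against WT. With FLT3 ITD replicates 1 and 3 summed they were Cd47 in the double mutant against FLT3 ITD (-0.10) and Siglec15 in FLT3 ITD against WT (-0.20). With replicate 2 also left out they were Cd47 in the double mutant against FLT3 ITD (-0.22) and in the interaction (-0.084), and Dcstamp (-0.092), Ocstamp (-0.22) and Cd81 (0.22) in FLT3 ITD against WT. With a library left out, values in the double mutant against FLT3 ITD ranged over -0.30 to 0.025 for Cd9 and -0.10 to 0.46 for Cd47, against Ptprc KO over -0.038 to 0.092 for Cd44 and -0.021 to 0.25 for Sirpa, and against WT over -0.18 to 0.081 for Sirpa. In FLT3 ITD against WT they ranged over -0.23 to 0.41 for Siglec15, -0.23 to 0.33 for Cd47, -0.82 to 0.36 for Adam8 and -0.28 to 0.10 for Calcr. In Ptprc KO against WT they ranged over -0.13 to 0.33 for Dcstamp, -0.014 to 0.21 for Cd44, -0.40 to 0.028 for Cd47 and -0.67 to 0.089 for Adam8, and in the interaction over -0.0034 to 0.59 for Cd47 and -0.21 to 0.12 for Cd9.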
